A study of Arabidopsis thaliana with 20 samples.

Results

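The WRKY transcription factors of Arabidopsis thaliana were taken as every gene that the deposited tables place in the transcription factor family WRKY, together with any gene whose name begins with WRKY. This gave 72 of the 33104 genes in the tables. Of these, 71 carried the family label, and WRKY19, which the tables list under protein kinases, was found by its name. RRS1 and RRS1B, immune receptors that carry a WRKY domain, have other names in the tables and the family label. No measured value entered the choice.

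Poly-A RNA was sequenced from whole leaves of 4-week-old plants grown with 10 h of light and 14 h of dark. The libraries labelled ilp1-1 come from a line with a mutation in ILP1, a gene for a spliceosome-associated protein, and the libraries of Col-0 from the wild type. Every plant first had 2 h of light at 100 µmol photons m-2 s-1. The groups at 0 h ended there, and those at 4, 8 and 16 h had then spent that long at 500 µmol photons m-2 s-1, called high light here. The groups at 30 h had 24 h of high light followed by 6 h of normal light. Each of the 10 groups holds 2 libraries. The labels do not say whether the 2 libraries come from separate plants or pools, and every p-value here therefore measures the spread between these samples only, which may be technical. High light was continuous from 2 h into the day, so from 0 h to 16 h, hours of high light and time of day cannot be told apart. The groups at 16 h fell in hours that had been dark during growth. Those at 30 h fell at an hour of the day between those of the 4 h and 8 h groups, but after other light.

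WRKY proteins bind DNA through a domain named after the amino acids tryptophan, arginine, lysine and tyrosine that open its signature, followed by a zinc finger. Most bind W-boxes, short motifs with a TTGAC core, and many WRKY genes carry W-boxes in their own promoters. In leaves the family is best known for responses to pathogens and to salicylic acid, for leaf senescence and for abiotic stress. MAP kinase cascades phosphorylate several members, and VQ proteins bind others. The family is divided into group I, whose members have a WRKY domain at each end of the protein, group II with its subgroups IIa to IIe, and group III, which has another form of zinc finger.

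Of the 72 members, 14 belong to group I, 3 to IIa, 8 to IIb, 17 to IIc, 7 to IId, 8 to IIe and 14 to group III. WRKY45 was left unplaced. The filter on low values was a level of 1 FPKM or more in 2 or more libraries. FPKM are fragments per kilobase, scaled here by a size factor for each library that is described with the processing. A total of 50 members passed this filter and were tested. They were 12 of 14 in group I, 3 of 3 in IIa, 2 of 8 in IIb, 10 of 17 in IIc, 6 of 7 in IId, 6 of 8 in IIe and 10 of 14 in group III, and WRKY45. The 22 others reached at most 1.14 FPKM in any library, the level of WRKY41 in its highest, and WRKY68 was at 0 in all libraries. Among members just outside the filter, WRKY59 reached 1.03 FPKM and WRKY42 0.842 FPKM.

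The files gave 11.4 to 19.0 M reads per library. The share of plastid transcripts was 0.203 and 0.453% at 4 h in ilp1-1, and 0.0995 and 0.129% at 8 h in ilp1-1, against 0.0188 to 0.0349% in the other libraries. ILP1 (AT5G08550) had no lower level in ilp1-1, with 8.03 ± 1.22 FPKM against 3.26 ± 0.88 FPKM in Col-0 at 0 h (SD, n = 2 each) and 3.18 ± 0.22 FPKM against 2.85 ± 0.27 FPKM at 30 h, so this level does not check the label, and ilp1-1 stands throughout for the libraries labelled so. Summed over 4 mesophyll genes the level was 15816 to 53664 FPKM per library. The 4 floral and meristem genes AG, AP1, LFY and STM summed to at most 6.50 FPKM per library, with AP1 at 0 in all of them. STM reached 4.12 FPKM, and AG at 0 h had 1.67 and 2.39 FPKM in ilp1-1 against 0.315 and 0.322 FPKM in Col-0. In such bulk samples, fewer cells of a type and less RNA per cell cannot be told apart.

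The codons of the WRKY signature, 7 amino acids long, were found in frame in all 72 members. A total of 60 members had 1 copy. The 12 members with 2 copies were all of group I, in which WRKY19 and WRKY10 had 1 copy. The sixth amino acid of the signature is glutamine in most plant WRKY proteins. WRKY50, WRKY51 and WRKY59 of subgroup IIc instead had a lysine codon, and WRKY50 and WRKY51 were among the members with the largest differences between the genotypes below. Their signatures follow in the reading strand, 5′ to 3′, on TAIR10.1, whose gene positions match those of the files for all 72 members. WRKY46 and WRKY18, 2 further members with large differences, and both copies of WRKY33 are given for comparison, and capitals mark the sixth codon.
WRKY50, chr5:9147579-9147599, minus strand: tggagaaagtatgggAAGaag
WRKY51, chr5:25908864-25908884, plus strand: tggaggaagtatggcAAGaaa
WRKY59, chr2:9335762-9335782, minus strand: tggaggaaatacggaAAGaag
WRKY46, chr2:19044313-19044333, minus strand: tggagaaaatatgggCAAaaa
WRKY18, chr4:15384316-15384336, plus strand: tggaggaaatacggaCAAaag
WRKY33 first copy, chr2:16109358-16109378, plus strand: tggagaaagtacggaCAAaaa
WRKY33 second copy, chr2:16109982-16110002, plus strand: tggagaaaatacggcCAGaaa

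W-boxes were searched as TTGACC or TTGACT on either strand in the 250 bases before each gene start, with overlapping matches each counted. At least 1 was present before 25 of 72 members (34.7%), against 28.4% of 27419 protein-coding genes. At least 2 were present before 10 members (13.9%), against 6.19% of those genes. Subgroup IIa had a W-box before 0 of 3 members and group III before 8 of 14. WRKY30 was the only member with 3. WRKY30, WRKY53 and WRKY33 are shown because each holds at least 2 W-boxes and is central to the changes with time below. That choice was made after their values were seen. The sequences are the strand of the gene, from RefSeq's TAIR10.1 assembly. They end at the base before the gene start, and have the W-boxes in capitals, of which AGTCAA and GGTCAA are matches on the other strand.
WRKY30 promoter, chr5:8154711-8154960, minus strand: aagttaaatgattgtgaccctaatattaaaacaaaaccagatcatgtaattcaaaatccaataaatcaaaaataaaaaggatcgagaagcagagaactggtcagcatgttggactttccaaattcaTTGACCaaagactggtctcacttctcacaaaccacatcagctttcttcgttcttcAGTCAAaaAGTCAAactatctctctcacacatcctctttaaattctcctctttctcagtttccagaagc
WRKY53 promoter, chr4:12393983-12394232, minus strand: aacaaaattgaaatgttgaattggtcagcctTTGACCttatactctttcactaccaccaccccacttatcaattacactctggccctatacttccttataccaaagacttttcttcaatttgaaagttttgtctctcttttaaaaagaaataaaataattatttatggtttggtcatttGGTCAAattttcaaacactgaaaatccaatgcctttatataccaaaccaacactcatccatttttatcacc
WRKY33 promoter, chr2:16107985-16108234, plus strand: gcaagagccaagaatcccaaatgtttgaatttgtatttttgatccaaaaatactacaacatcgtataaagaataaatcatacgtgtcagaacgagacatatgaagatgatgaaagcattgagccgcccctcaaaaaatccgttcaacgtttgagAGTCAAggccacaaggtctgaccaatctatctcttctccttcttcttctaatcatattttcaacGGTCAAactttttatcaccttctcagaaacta
Of the 26 members higher at 30 h than at 0 h in ilp1-1, 7 (26.9%) had a W-box, and of the 24 tested members not higher there, 12 (50%) did. Of all protein-coding genes higher in that comparison, 33.0% had one. Of the 24 members with a higher mean in ilp1-1 than in Col-0, 9 (37.5%) had at least 1 and 7 (29.2%) at least 2, against 30.3% and 7.05% of all protein-coding genes with a higher mean. A match is a run of letters, not a shown binding site.

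Summed over the 72 members, the family's level was lowest at 4 h in both genotypes and highest at 30 h. In ilp1-1 it was 432 and 533 FPKM at 0 h, 319 and 335 at 4 h, 411 and 416 at 8 h, 465 and 539.7 at 16 h, and 1012 and 1062 at 30 h. In Col-0 it was 469 and 425 FPKM at 0 h, 259 and 236 at 4 h, 264 and 303 at 8 h, 365 and 345 at 16 h, and 564 and 556 at 30 h. The genotypes overlapped at 0 h, and from 4 h on both ilp1-1 libraries lay above both Col-0 libraries. WRKY70 had the highest level of all members in each of the 10 groups, with 31.0% of the sum in ilp1-1 and 32.7% in Col-0 at 0 h, and 24.4% in ilp1-1 and 21.3% in Col-0 at 30 h. The next highest at 30 h were WRKY46 at 95.9 FPKM and WRKY50 at 65.3 FPKM in ilp1-1, and WRKY54 at 39.2 FPKM and WRKY46 at 36.4 FPKM in Col-0, as means of 2 libraries.

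**Figure D1:**
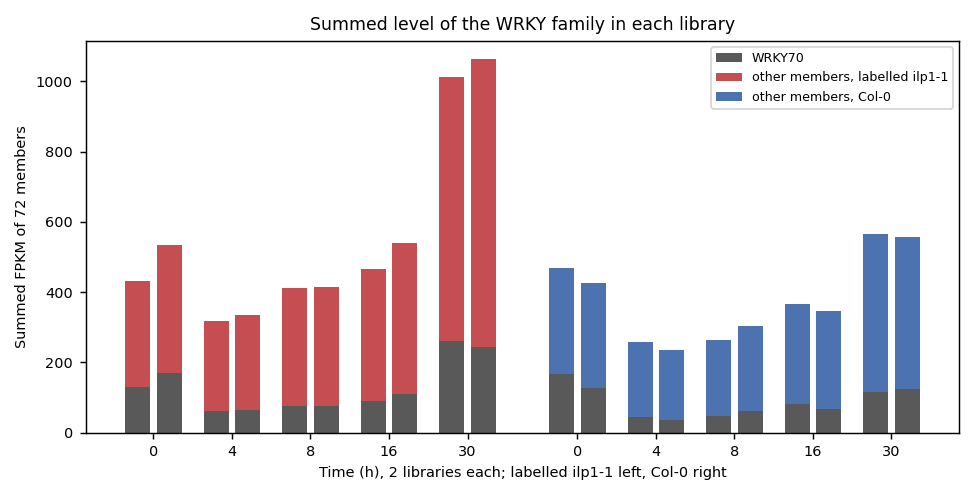
Summed FPKM of the 72 WRKY members in each library (vertical axis) by time in hours (horizontal axis), ilp1-1 on the left and Col-0 on the right, with the share of WRKY70 in grey. The ilp1-1 libraries of 30 h reach 1012 and 1062 FPKM, against 564 and 556 FPKM in Col-0.

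Among the 50 members tested, 33 (66%) had their highest group mean at 30 h in ilp1-1, against 31.0% of all genes tested, and 25 (50%) did in Col-0, against 24.1%. The lowest mean fell at 4 h for 18 members (36%) in ilp1-1, against 17.2% of all genes tested, and for 21 (42%) in Col-0, against 19.6%. The remaining members had their lowest mean at other times, among them 14 at 0 h in ilp1-1 and 15 at 8 h in Col-0. WRKY44 was an exception, with its highest mean at 16 h in both genotypes.

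**Figure D2:**
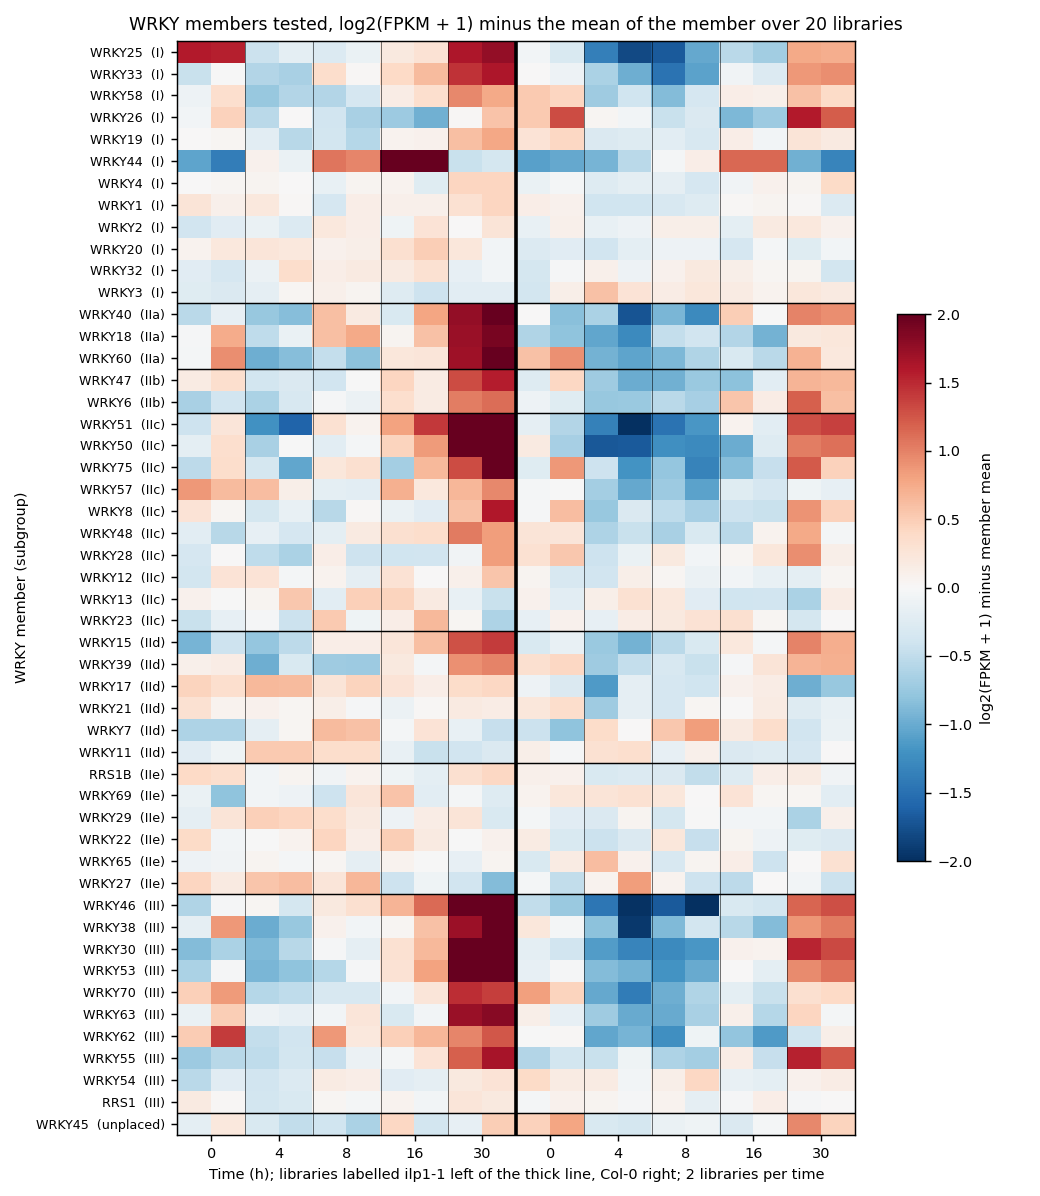
Heat map of log2(FPKM + 1) minus the mean of each member over the 20 libraries, for the 50 members tested (rows, by subgroup), with 2 libraries per time (columns), ilp1-1 left of the thick line and Col-0 right of it. Colours stop at -2 and 2. Most tested members of IIa, IIc and III have their highest values at 30 h and their lowest in the Col-0 libraries of 4 and 8 h.

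Genotype differences, libraries labelled ilp1-1 minus those of Col-0, were taken first as the mean over the 5 times. The values in parentheses are limma's differences on the log2(FPKM + 1) scale ± SE, with p-values adjusted by Benjamini and Hochberg over all 19311 genes tested, and a gene passed at an adjusted p under 0.05. Of the 50 members, 24 were higher in ilp1-1 than in Col-0, 4 were lower and 22 did not pass. Among all genes 29.3% were higher and 27.8% lower (57.2% in all), against 48% and 8% of the members (56% in all). So the share that differed was close to that of all genes, and the members that differed were mostly higher. The median difference was 0.23 over the members and 0.01 over all genes. Higher were all 3 of IIa, 1 of 2 in IIb, 3 of 10 in IIc, 2 of 6 in IId and 3 of 6 in IIe. So were 5 of 12 in group I and 7 of 10 in group III. With scaling to total reads, the median of all genes lay at 0.16, and 33 members were higher and 2 lower. All 4 mesophyll genes had a lower mean in ilp1-1 (median -0.92), and of the 8 senescence genes 4 were higher and 1 lower (median 0.44). Their part in the WRKY result was not tested.

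The largest mean differences had WRKY46 (1.31 ± 0.09, adjusted p = 9.56e-09), WRKY25 (1.19 ± 0.08, adjusted p = 4.38e-09), WRKY18 (1.13 ± 0.10, adjusted p = 9.38e-08), WRKY50 (1.098 ± 0.12, adjusted p = 2.05e-06) and WRKY62 (1.09 ± 0.15, adjusted p = 1.7e-05). They were followed by WRKY57 (0.88 ± 0.09), WRKY51 (0.87 ± 0.12) and WRKY17 (0.79 ± 0.09). The lower members were WRKY26 (-0.45 ± 0.13, adjusted p = 0.00641), WRKY28 (-0.35 ± 0.14, adjusted p = 0.0425), WRKY3 (-0.32 ± 0.06, adjusted p = 0.000398) and WRKY54 (-0.21 ± 0.05, adjusted p = 0.00235). With total-read scaling WRKY54 did not pass (-0.04, adjusted p = 0.485). WRKY28, a regulator of salicylic acid synthesis, averaged below 1 FPKM over the 5 times in each genotype and falls outside the rule for naming members. It was named after its values were seen because only 4 members were lower.

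At 0 h, before high light, 4 members were higher in ilp1-1 and 1 lower, or 8% and 2%, against 10% and 12.2% of all genes (22.2% in all). The 4 were WRKY25 (1.74 ± 0.18, adjusted p = 5.4e-06), WRKY18 (1.07 ± 0.22, adjusted p = 0.00253), WRKY57 (0.77 ± 0.20, adjusted p = 0.0108) and WRKY20 (0.39 ± 0.13, adjusted p = 0.042), and WRKY54 was lower (-0.66 ± 0.12, adjusted p = 0.000824). The call of WRKY57 was lost when ilp1-1 0 h replicate 1, Col-0 0 h replicate 1 or Col-0 0 h replicate 2 was left out in turn (adjusted p from 0.0532 to 0.0866). That of WRKY20 was lost when ilp1-1 0 h replicate 1, ilp1-1 0 h replicate 2, ilp1-1 4 h replicate 1, ilp1-1 4 h replicate 2, ilp1-1 8 h replicate 1, ilp1-1 8 h replicate 2, Col-0 0 h replicate 1, Col-0 0 h replicate 2, Col-0 8 h replicate 1 or Col-0 8 h replicate 2 was left out in turn (adjusted p from 0.0526 to 0.202). Without Col-0 0 h replicate 2 the members that passed came to 3 instead of 5. Fitted on the 0 h libraries alone, 2 passed, and the calls of WRKY18 (adjusted p = 0.092), WRKY54 (adjusted p = 0.0709) and WRKY20 (adjusted p = 0.113) were lost. The call of WRKY20 was also lost with no filter on low values (adjusted p = 0.0541), and limma-voom on recovered reads passed 9 members, 5 higher and 4 lower. Of the mesophyll genes 3 of 4 were lower in ilp1-1, and of the senescence genes 2 of 8, and their part was not tested.

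At 4 h, 12 members were higher in ilp1-1 and 2 lower, against 14.7% and 15.8% of all genes (30.6% in all). WRKY46 (1.56 ± 0.21, adjusted p = 4e-05), WRKY50 (1.36 ± 0.28, adjusted p = 0.00162), WRKY17 (1.298 ± 0.20, adjusted p = 0.000166) and WRKY25 (1.27 ± 0.18, adjusted p = 5.86e-05) differed most. WRKY3, known from resistance to necrotrophic fungi, was lower (-0.50 ± 0.14, adjusted p = 0.0126), as was WRKY54 (-0.38 ± 0.12, adjusted p = 0.0215). Both of these calls were lost without ilp1-1 4 h replicate 1 or without Col-0 4 h replicate 1 (adjusted p from 0.122 to 0.186). With total-read scaling 16 members were higher and 0 lower. Without Col-0 4 h replicate 1 the members that passed came to 9 instead of 14. Fitted on the 4 h libraries alone, 9 passed, all higher, and the call of WRKY17 was lost (adjusted p = 0.0587), as were those of both lower members. The ilp1-1 libraries of 4 h had the highest plastid shares of all, 0.203 and 0.453%, and 3 of 4 mesophyll genes were lower in ilp1-1 (median -1.09). The part of either in the result was not tested.

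At 8 h, 19 members were higher in ilp1-1, against 14.3% of all genes, and 0 lower, against 15.2% (29.5% in all). In limma 0 members were lower at an unadjusted p under 0.05 as well, and limma-voom on recovered reads also gave 0. WRKY46 (2.10 ± 0.21, adjusted p = 2.45e-06), WRKY51 (1.51 ± 0.26, adjusted p = 0.000476), WRKY40 (1.48 ± 0.38, adjusted p = 0.00818) and WRKY33 (1.46 ± 0.17, adjusted p = 1.5e-05) differed most. The call of WRKY40 was lost when ilp1-1 8 h replicate 1 or Col-0 8 h replicate 2 was left out in turn (adjusted p from 0.069 to 0.0718). Without ilp1-1 8 h replicate 2 the members that passed came to 10, and without Col-0 8 h replicate 1 to 11. Plastid reads in these ilp1-1 libraries were raised, as given above, 2 of 4 mesophyll genes were lower and 1 higher, and 2 of 8 senescence genes were higher. Their part in the result was not tested.

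At 16 h, 13 members were higher in ilp1-1 and 1 lower, against 11% and 16.7% of all genes (27.7% in all). WRKY62 (1.53 ± 0.34, adjusted p = 0.00321), WRKY50 (1.28 ± 0.28, adjusted p = 0.00284), WRKY46 (1.24 ± 0.21, adjusted p = 0.000348) and WRKY44 (1.20 ± 0.16, adjusted p = 3.45e-05) differed most, and WRKY3 was lower (-0.45 ± 0.14, adjusted p = 0.0242). The call of WRKY50 was lost when Col-0 16 h replicate 1 was left out (adjusted p = 0.0525), and that of WRKY3 when ilp1-1 16 h replicate 2, Col-0 16 h replicate 1 or Col-0 16 h replicate 2 was left out in turn (adjusted p from 0.0572 to 0.156). Scaled to total reads, WRKY3 did not pass (-0.20, adjusted p = 0.268), nor did it with the 16 h libraries fitted alone (adjusted p = 0.0528). The members that passed came to 9 without ilp1-1 16 h replicate 2, without Col-0 16 h replicate 1 and without Col-0 16 h replicate 2. The 4 mesophyll genes were all lower in ilp1-1, with sums of 17862 to 18784 FPKM in ilp1-1 and 34812 to 36826 FPKM in Col-0, and their part in the result was not tested.

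At 30 h, 20 members were higher in ilp1-1 and 2 lower, against 17.2% and 16.8% of all genes (34% in all). WRKY18 (1.60 ± 0.22, adjusted p = 3.97e-05), WRKY63 (1.58 ± 0.27, adjusted p = 0.000271), WRKY50 (1.41 ± 0.28, adjusted p = 0.00101) and WRKY60 (1.38 ± 0.25, adjusted p = 0.00049) differed most. WRKY26 (-1.10 ± 0.28, adjusted p = 0.0065) and WRKY3 (-0.41 ± 0.14, adjusted p = 0.0334) were lower. The call of WRKY26 was lost when ilp1-1 30 h replicate 1 or Col-0 30 h replicate 1 was left out in turn (adjusted p from 0.0655 to 0.0785) and when the 30 h libraries were fitted alone (adjusted p = 0.0512), and that of WRKY3 when ilp1-1 30 h replicate 1, ilp1-1 30 h replicate 2, Col-0 30 h replicate 1 or Col-0 30 h replicate 2 was left out in turn (adjusted p from 0.093 to 0.12). Scaled to total reads, WRKY3 did not pass (-0.20, adjusted p = 0.25). Without ilp1-1 30 h replicate 2 the members that passed came to 14. Summed over 8 senescence genes the level at 30 h was 447 to 683 FPKM in ilp1-1 and 293 to 344 FPKM in Col-0, where 1 of the 8 was higher and 1 lower. SAG13 and SAG21 made up most of each senescence sum given here and below, so these sums say little of the other genes. SAG13 had 177 and 370 FPKM in ilp1-1 and 138 and 102 FPKM in Col-0. The senescence regulator ORE1 lay the other way, with 3.06 and 4.09 FPKM in ilp1-1 and 9.12 and 4.71 FPKM in Col-0. Summed over 4 mesophyll genes the level at 30 h was 15816 to 17196 FPKM in ilp1-1 and 37493 to 39462 FPKM in Col-0, and all 4 were lower. The part of either in the WRKY result was not tested.

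**Figure D3:**
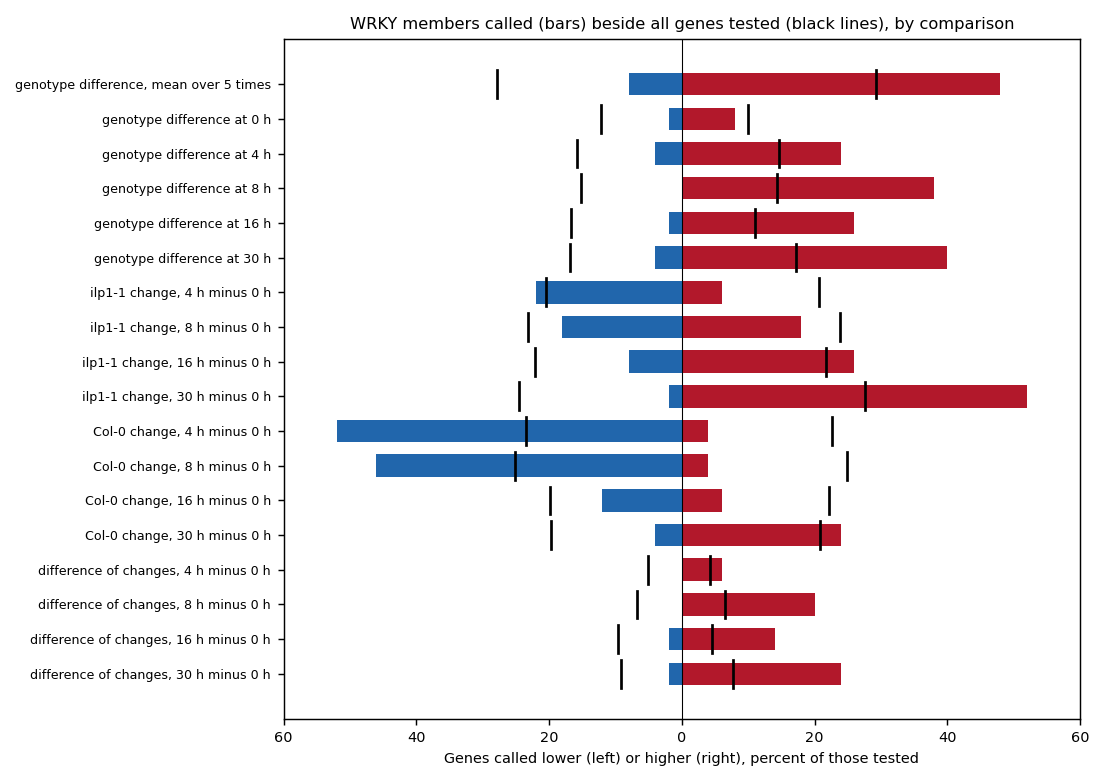
Percent of the 50 members tested that were higher (right of 0) or lower (left of 0) in each of 18 comparisons, as bars, with the percent of all 19311 genes tested as black lines. At 8 h, 38% of members were higher in ilp1-1 and at 4 h of light 52% were lower than at 0 h in Col-0.

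Over the 5 times, WRKY18, WRKY25 and WRKY57 were higher in ilp1-1 at all 5, and WRKY44, WRKY46 and WRKY50 at 4. WRKY3 was lower at 3 times, WRKY54 at 2 and WRKY26 at 1. No member passed as higher at some time and as lower at another.

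WRKY18, WRKY40 and WRKY60 form subgroup IIa, related repressors that act in defence and in abscisic acid responses. WRKY18 in ilp1-1 had 17.1 and 29.7 FPKM at 0 h, 11.9 and 15.9 at 4 h, 26.9 and 30.03 at 8 h, 18.04 and 26.5 at 16 h and 59.7 and 67.3 at 30 h. Levels in Col-0 were 11.1 and 9.50 FPKM at 0 h, 7.999 and 6.65 at 4 h, 12.3 and 13.2 at 8 h, 11.3 and 8.61 at 16 h and 20.1 and 20.4 at 30 h. The ilp1-1 libraries lay above those of Col-0 at each time, and the difference at 30 h was 3.03-fold on the log2(FPKM + 1) scale. WRKY60 in ilp1-1 had 6.84 and 14.3 FPKM at 0 h, 3.11 and 3.48 at 4 h, 4.80 and 3.57 at 8 h, 8.49 and 8.56 at 16 h and 25.1 and 31.1 at 30 h, against 11.2 and 14.2 FPKM at 0 h, 3.17 and 2.88 at 4 h, 3.33 and 4.30 at 8 h, 5.51 and 4.57 at 16 h and 12.1 and 8.37 at 30 h in Col-0. It fell in both genotypes at 4 h, and at 30 h it was above its 0 h level in ilp1-1 (1.40 ± 0.25, adjusted p = 0.00021) while in Col-0 its change did not pass (-0.30 ± 0.25, adjusted p = 0.376). WRKY40 in ilp1-1 had 2.70 and 3.81 FPKM at 0 h, 2.19 and 1.998 at 4 h, 7.16 and 5.09 at 8 h, 3.39 and 8.29 at 16 h and 17.4 and 25.2 at 30 h, against 4.44 and 2.02 FPKM at 0 h, 2.48 and 0.636 at 4 h, 1.86 and 1.23 at 8 h, 6.58 and 4.35 at 16 h and 9.77 and 9.32 at 30 h in Col-0. Its replicates spread widely, and at 0, 4 and 16 h the genotypes overlapped.

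In group III, WRKY70, a node between the salicylic acid and jasmonic acid pathways, had 129 and 169 FPKM at 0 h, 62.02 and 65.4 at 4 h, 74.2 and 74.2 at 8 h, 89.3 and 110.1 at 16 h and 262 and 244 at 30 h in ilp1-1. The Col-0 values were 166 and 127 FPKM at 0 h, 45.2 and 34.8 at 4 h, 46.6 and 61.2 at 8 h, 80.99 and 67.9 at 16 h and 116 and 123 at 30 h. Only at 0 h did the genotypes overlap, and at 30 h both ilp1-1 libraries were above all libraries of Col-0.

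WRKY54, its nearest relative and like WRKY70 a repressor of senescence, had another profile. In ilp1-1 it had 24.4 and 30.8 FPKM at 0 h, 27.3 and 29.8 at 4 h, 40.5 and 39.7 at 8 h, 30.5 and 31.7 at 16 h and 41.2 and 43.5 at 30 h. For Col-0 these were 47.4 and 40.5 FPKM at 0 h, 40.4 and 34.5 at 4 h, 39.3 and 48.1 at 8 h, 32.3 and 31.3 at 16 h and 38.4 and 39.99 at 30 h. At 0 and 4 h the ilp1-1 libraries lay below those of Col-0, and at 30 h above them by an amount that did not pass (0.11 ± 0.12, adjusted p = 0.513). WRKY46, which acts in defence and in osmotic stress, had 9.49 and 14.7 FPKM at 0 h, 15.4 and 11.6 at 4 h, 17.3 and 18.9 at 8 h, 24.6 and 34.02 at 16 h and 95.5 and 96.2 at 30 h in ilp1-1. Set against this were 10.3 and 8.59 FPKM at 0 h, 4.86 and 3.05 at 4 h, 3.997 and 2.99 at 8 h, 11.999 and 11.4 at 16 h and 34.8 and 37.97 at 30 h in Col-0. From 4 h on no ilp1-1 library overlapped with Col-0.

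WRKY53, an early activator of leaf senescence, had 3.77 and 6.32 FPKM at 0 h, 2.92 and 3.23 at 4 h, 3.97 and 6.32 at 8 h, 8.06 and 11.9 at 16 h and 29.7 and 32.8 at 30 h in ilp1-1. Col-0 libraries had 5.61 and 6.27 FPKM at 0 h, 3.05 and 2.84 at 4 h, 2.23 and 2.67 at 8 h, 6.43 and 5.50 at 16 h and 13.2 and 14.7 at 30 h. The genotypes overlapped at 0 and 4 h, and from 8 h on the ilp1-1 libraries were the higher ones. A total of 341 bases of WRKY53, 21.1% of its span, overlap AT4G23800 on the other strand, which stood at 4.37 to 16.5 FPKM, and the strand setting of the counting is not given in the sources used here. WRKY30, a group III gene known from responses to reactive oxygen species, had 0.910 and 1.24 FPKM at 0 h, 0.880 and 1.37 at 4 h, 2.41 and 2.07 at 8 h, 3.29 and 4.44 at 16 h and 15.8 and 17.6 at 30 h in ilp1-1. Levels in Col-0 were 2.03 and 1.66 FPKM at 0 h, 0.607 and 0.392 at 4 h, 0.436 and 0.550 at 8 h, 2.69 and 2.66 at 16 h and 9.05 and 7.68 at 30 h. At 0 h the ilp1-1 libraries were the lower ones, by an amount that did not pass (-0.46 ± 0.17, adjusted p = 0.0682), and from 4 h on the higher ones.

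In group I, WRKY25, WRKY26 and WRKY33 are relatives known from heat tolerance, and WRKY33 also from the synthesis of the antimicrobial camalexin. WRKY25 had 49.04 and 48.2 FPKM at 0 h, 11.3 and 13.6 at 4 h, 12.8 and 14.2 at 8 h, 18.1 and 19.3 at 16 h and 50.5 and 55.3 at 30 h in ilp1-1. The Col-0 values were 15.2 and 12.6 FPKM at 0 h, 5.47 and 3.79 at 4 h, 4.23 and 7.19 at 8 h, 10.5 and 9.29 at 16 h and 27.3 and 26.7 at 30 h. The ilp1-1 level was above that of Col-0 at each time, most of all at 0 h, where the difference was 3.35-fold on the log2(FPKM + 1) scale. WRKY33 had 8.26 and 11.5 FPKM at 0 h, 7.47 and 7.06 at 4 h, 15.2 and 11.9 at 8 h, 15.7 and 18.7 at 16 h and 33.4 and 37.9 at 30 h in ilp1-1. For Col-0 these were 11.8 and 10.8 FPKM at 0 h, 7.18 and 5.40 at 4 h, 3.57 and 5.04 at 8 h, 11.1 and 9.46 at 16 h and 22.2 and 23.1 at 30 h. It overlaps AT2G08965 by 272 bases and AT2G38480 by 26 on the other strand. WRKY26 was lower than both. It had 1.18 and 2.14 FPKM at 0 h, 0.560 and 1.29 at 4 h, 0.735 and 0.448 at 8 h, 0.367 and 0.171 at 16 h and 1.31 and 2.38 at 30 h in ilp1-1. Set against this were 2.26 and 4.58 FPKM at 0 h, 1.34 and 1.18 at 4 h, 0.669 and 0.855 at 8 h, 0.215 and 0.370 at 16 h and 5.84 and 4.28 at 30 h in Col-0. The genotypes overlapped at 4, 8 and 16 h, where levels were near or under 1 FPKM.

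WRKY44, also of group I and known as TTG2 from trichome and seed coat development, rose to 16 h of high light in both genotypes. In ilp1-1 it had 2.28 and 1.60 FPKM at 0 h, 6.18 and 5.18 at 4 h, 13.2 and 12.3 at 8 h, 33.2 and 33.9 at 16 h and 3.97 and 4.29 at 30 h. Col-0 libraries had 2.20 and 2.34 FPKM at 0 h, 2.54 and 3.69 at 4 h, 5.61 and 6.47 at 8 h, 13.95 and 14.1 at 16 h and 2.47 and 1.72 at 30 h. The genotypes overlapped at 0 h and at no later time. The 5 trichome genes summed to 10.6 to 10.9 FPKM at 16 h in ilp1-1 and 7.73 to 9.31 FPKM in Col-0, against 4.66 to 7.15 FPKM in ilp1-1 and 3.69 to 6.02 FPKM in Col-0 at 0 h. Of the 4 tested, 2 rose to 16 h in each genotype, and their part in the result was not tested.

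Among the remaining members of known role, WRKY50 and WRKY51 repress jasmonic acid responses. WRKY50 had 9.41 and 13.997 FPKM at 0 h, 6.59 and 10.9 at 4 h, 9.37 and 10.7 at 8 h, 15.3 and 20.5 at 16 h and 68.8 and 61.8 at 30 h in ilp1-1. Levels in Col-0 were 12.5 and 6.55 FPKM at 0 h, 2.68 and 2.72 at 4 h, 4.09 and 3.93 at 8 h, 5.01 and 8.97 at 16 h and 23.2 and 24.6 at 30 h. The genotypes overlapped at 0 h only. WRKY57, known from drought tolerance, had 8.55 and 7.19 FPKM at 0 h, 7.04 and 4.72 at 4 h, 3.60 and 3.52 at 8 h, 7.57 and 5.11 at 16 h and 7.33 and 9.25 at 30 h in ilp1-1. The Col-0 values were 4.13 and 4.23 FPKM at 0 h, 2.27 and 1.59 at 4 h, 2.17 and 1.51 at 8 h, 3.43 and 3.17 at 16 h and 3.94 and 3.69 at 30 h. It lay higher in ilp1-1 at each time, and its change to 30 h passed in neither ilp1-1 (0.06 ± 0.20) nor Col-0 (-0.11 ± 0.20).

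WRKY22 and WRKY29, which act downstream of the flagellin receptor FLS2, stayed at 1.07 to 3.004 FPKM and 0.376 to 1.95 FPKM over all libraries. Their mean differences were 0.34 ± 0.10, adjusted p = 0.0113 and 0.30 ± 0.12, adjusted p = 0.0378, and no change with time passed for either. WRKY6, a repressor of the phosphate exporter PHO1, had a mean difference that did not pass (0.11 ± 0.09, adjusted p = 0.309) and was higher at 30 h than at 0 h in ilp1-1 (1.58 ± 0.19, adjusted p = 4.67e-06) and in Col-0 (1.07 ± 0.19, adjusted p = 0.000334). WRKY75, a regulator of phosphate starvation responses, had 0.922 and 2.51 FPKM at 0 h, 1.17 and 0.335 at 4 h, 2.23 and 2.42 at 8 h, 0.714 and 3.33 at 16 h and 5.80 and 14.2 at 30 h in ilp1-1. For Col-0 these were 1.32 and 4.05 FPKM at 0 h, 1.06 and 0.208 at 4 h, 0.607 and 0.0876 at 8 h, 0.522 and 0.991 at 16 h and 5.45 and 2.81 at 30 h. The 2 libraries of a group lay far apart at most times, and the mean difference did not pass (0.55 ± 0.23, adjusted p = 0.0516).

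**Figure D4:**
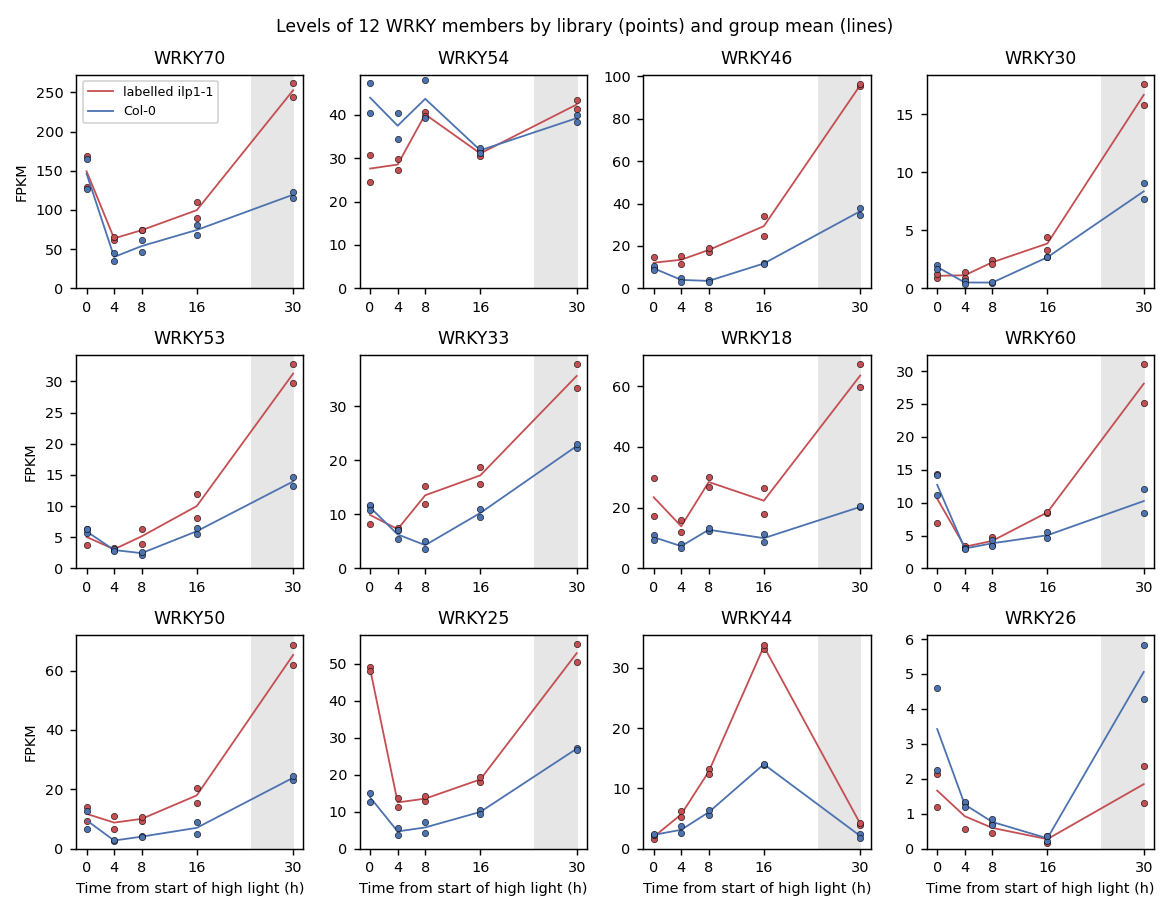
FPKM (vertical axes, each with its own range) of 12 WRKY members against hours from the start of high light (horizontal axes). Points are libraries, lines join group means, ilp1-1 is red and Col-0 blue, and grey marks the 6 h of normal light at the end. WRKY46 reaches 95.5 and 96.2 FPKM at 30 h in ilp1-1, against 34.8 and 38.0 in Col-0, while WRKY44 peaks at 16 h.

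Changes from 0 h within a genotype hold the light treatment and the time of day together, which cannot be told apart here. In ilp1-1 at 4 h, 3 members had risen and 11 had fallen, against 20.6% and 20.4% of all genes (41% in all). The 3 were WRKY44 (1.19 ± 0.16, adjusted p = 1.76e-05) and the subgroup IId members WRKY11 (0.68 ± 0.13, adjusted p = 0.000508) and WRKY7 (0.55 ± 0.18, adjusted p = 0.0237), which bind calmodulin. WRKY25 (-1.88 ± 0.18, adjusted p = 4.3e-07), WRKY62 (-1.39 ± 0.34, adjusted p = 0.00371), WRKY60 (-1.35 ± 0.25, adjusted p = 0.000394) and WRKY51 (-1.31 ± 0.26, adjusted p = 0.000808) fell most. The call of WRKY7 was lost when ilp1-1 0 h replicate 1, ilp1-1 0 h replicate 2 or ilp1-1 4 h replicate 2 was left out in turn (adjusted p from 0.0762 to 0.156) and that of WRKY62 when ilp1-1 0 h replicate 2 was left out (adjusted p = 0.0696). Without ilp1-1 0 h replicate 2 the members that passed came to 8 instead of 14. Fitted on the libraries of this comparison alone, 9 passed, and WRKY7 did not (adjusted p = 0.053). Of the 4 mesophyll genes 3 were lower than at 0 h, and of the 8 senescence genes 4, and their part was not tested.

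In ilp1-1 at 8 h, 9 members were above and 9 below 0 h, against 23.8% and 23.2% of all genes (47% in all). With total-read scaling these were 12 and 7. WRKY44 (2.24 ± 0.16, adjusted p = 1.03e-08), WRKY7 (1.23 ± 0.18, adjusted p = 3.73e-05), WRKY15 (0.81 ± 0.17, adjusted p = 0.000924) and WRKY30 (0.65 ± 0.17, adjusted p = 0.00527) rose most. WRKY25 (-1.78 ± 0.18, adjusted p = 4.9e-07), WRKY60 (-1.09 ± 0.25, adjusted p = 0.00186), WRKY70 (-0.99 ± 0.16, adjusted p = 0.000121) and WRKY57 (-0.96 ± 0.20, adjusted p = 0.000824) fell most. The call of WRKY30 was lost when ilp1-1 0 h replicate 1 was left out (adjusted p = 0.0542), and that of WRKY60 when the libraries of this comparison were fitted alone (adjusted p = 0.062). All 4 mesophyll genes and 4 of 8 senescence genes were below 0 h, and their part was not tested.

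In ilp1-1 at 16 h, 13 members were above and 4 below 0 h, against 21.7% and 22.1% of all genes (43.8% in all), and 18 and 2 when scaled to total reads. WRKY44 rose most (3.57 ± 0.16, adjusted p = 4.79e-11, 11.8-fold on the log2(FPKM + 1) scale), before WRKY46 (1.23 ± 0.21), WRKY30 (1.22 ± 0.17) and WRKY51 (1.20 ± 0.26). The 4 that fell were WRKY25 (-1.33 ± 0.18), WRKY26 (-1.05 ± 0.28), WRKY70 (-0.57 ± 0.16) and RRS1B (-0.51 ± 0.14). Scaled to total reads, WRKY70 (-0.34, adjusted p = 0.102) and RRS1B (-0.32, adjusted p = 0.0766) did not pass. With libraries left out, calls were lost for WRKY26 when ilp1-1 0 h replicate 2 or ilp1-1 16 h replicate 2 was left out in turn (adjusted p from 0.0517 to 0.0797), for WRKY70 when ilp1-1 0 h replicate 2 or ilp1-1 16 h replicate 1 was left out in turn (adjusted p from 0.11 to 0.13) and for RRS1B when ilp1-1 16 h replicate 2 was left out (adjusted p = 0.0584). Without ilp1-1 16 h replicate 2 the members that passed came to 10 instead of 17. WRKY70 did not pass either with the libraries of this comparison alone (adjusted p = 0.055). In these libraries all 4 mesophyll genes (median -2.42) and 4 of 8 senescence genes were below 0 h, and their part was not tested.

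In ilp1-1 at 30 h, after 6 h of normal light, 26 members were above and 1 below 0 h, or 52% and 2%, against 27.6% and 24.5% of all genes (52.1% in all). The median change was 0.49 over the members and 0.02 over all genes. Risen were 8 of 10 tested members of group III, 6 of 12 of group I and all 3 of IIa. So were 2 of 2 of IIb, 5 of 10 of IIc and 2 of 6 of IId, and no member of IIe. WRKY30 (3.10 ± 0.17, adjusted p = 8.24e-10, 8.55-fold), WRKY46 (2.92 ± 0.21, adjusted p = 1.38e-08, 7.56-fold), WRKY51 (2.47 ± 0.26, adjusted p = 1.12e-06) and WRKY53 (2.45 ± 0.21, adjusted p = 1.11e-07) rose most. The member that fell was WRKY27 of IIe (-0.93 ± 0.29, adjusted p = 0.0128), whose call was lost when ilp1-1 0 h replicate 1 or ilp1-1 30 h replicate 2 was left out in turn (adjusted p from 0.0854 to 0.126). In the same comparison all 4 mesophyll genes were lower, with sums of 15816 to 17196 FPKM at 30 h and 45531 to 46135 FPKM at 0 h. Of 6 guard cell genes 5 were lower (median -0.76), with sums of 267 to 366 FPKM at 30 h and 466 to 569 FPKM at 0 h. Most of each sum was TGG1 alone, at 331 and 245 FPKM at 30 h and 485 and 392 FPKM at 0 h. Of the 8 senescence genes 4 were higher and 1 lower, and 4 of 5 vascular genes were lower. The part of these genes was not tested.

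In Col-0 at 4 h, 2 members had risen and 26 had fallen, or 4% and 52%, against 22.6% and 23.5% of all genes (46.1% in all). The median change was -0.61 over the members and -0.04 over all genes. Fallen were 7 of 10 tested members of group III, 6 of 12 of group I and 1 of 3 of IIa. So were 2 of 2 of IIb, 5 of 10 of IIc, 3 of 6 of IId, 1 of 6 of IIe and the unplaced WRKY45. WRKY70 (-1.84 ± 0.16, adjusted p = 2.06e-07), WRKY60 (-1.76 ± 0.25, adjusted p = 2.83e-05), WRKY38 (-1.48 ± 0.34, adjusted p = 0.00206) and WRKY50 (-1.45 ± 0.28, adjusted p = 0.000494) fell most. WRKY25 (-1.41 ± 0.18), WRKY51 (-1.34 ± 0.26), WRKY46 (-1.10 ± 0.21) and WRKY58 (-1.03 ± 0.21) came next. The 2 that rose were WRKY7 (0.80 ± 0.18, adjusted p = 0.00197) and WRKY3 (0.56 ± 0.14, adjusted p = 0.00384), and the call of WRKY3 was lost when Col-0 0 h replicate 1 or Col-0 4 h replicate 1 was left out in turn (adjusted p from 0.0613 to 0.084). With the libraries of this comparison alone, neither WRKY3 (adjusted p = 0.106) nor WRKY38 (adjusted p = 0.051) passed. The 8 senescence genes summed to 40.6 to 62.6 FPKM at 4 h and 185 to 239 FPKM at 0 h in Col-0, with 6 of 8 lower, and their part was not tested. Of these, SAG12 had 18.5 FPKM in Col-0 0 h replicate 2 and 0.091 FPKM in replicate 1.

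In Col-0 at 8 h, 2 members were above and 23 below 0 h, against 24.9% and 25.1% of all genes (50.1% in all). WRKY7 (1.31 ± 0.18, adjusted p = 1.96e-05) and WRKY44 (1.102 ± 0.16, adjusted p = 2.62e-05) were the 2 above. WRKY60 (-1.51 ± 0.25, adjusted p = 0.000107), WRKY70 (-1.42 ± 0.16, adjusted p = 2.56e-06), WRKY75 (-1.37 ± 0.51, adjusted p = 0.0345) and WRKY26 (-1.28 ± 0.28, adjusted p = 0.00128) were lowest against 0 h. The call of WRKY75 was lost when Col-0 0 h replicate 2 or Col-0 8 h replicate 2 was left out in turn (adjusted p from 0.187 to 0.302), with no filter (adjusted p = 0.0654), with own libraries only (adjusted p = 0.0603) and in limma-voom (adjusted p = 0.0551). Of the 8 senescence genes 6 were lower, with sums of 33.6 to 42.4 FPKM at 8 h and 185 to 239 FPKM at 0 h, and their part was not tested.

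In Col-0 at 16 h, 3 members were above and 6 below 0 h, against 22.2% and 19.8% of all genes (42% in all). The 3 were WRKY44 (2.20 ± 0.16, adjusted p = 1.61e-08), WRKY7 (0.88 ± 0.18, adjusted p = 0.000989) and WRKY6 (0.52 ± 0.19, adjusted p = 0.0395). WRKY26 (-1.73 ± 0.28), WRKY60 (-1.18 ± 0.25), WRKY62 (-0.97 ± 0.34) and WRKY70 (-0.96 ± 0.16) fell most. The call of WRKY6 was lost when Col-0 0 h replicate 1, Col-0 0 h replicate 2 or Col-0 16 h replicate 1 was left out in turn (adjusted p from 0.0741 to 0.307) and that of WRKY62 when Col-0 0 h replicate 1, Col-0 0 h replicate 2, Col-0 16 h replicate 1 or Col-0 16 h replicate 2 was left out in turn (adjusted p from 0.0508 to 0.167). With no filter neither WRKY6 (adjusted p = 0.0621) nor WRKY62 (adjusted p = 0.0568) passed, nor did WRKY6 with own libraries only (adjusted p = 0.1002). Of the senescence genes 4 of 8 were below 0 h, and of the mesophyll genes 2 were below and 2 above, and their part was not tested.

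In Col-0 at 30 h, 12 members were above and 2 below 0 h, against 20.8% and 19.7% of all genes (40.4% in all). WRKY55 (1.87 ± 0.24, adjusted p = 1.71e-05), WRKY46 (1.84 ± 0.21, adjusted p = 3.82e-06), WRKY30 (1.72 ± 0.17, adjusted p = 9.93e-07) and WRKY51 (1.71 ± 0.26, adjusted p = 8.12e-05) rose most. WRKY17 (-0.67 ± 0.20, adjusted p = 0.0141) and WRKY21 (-0.49 ± 0.16, adjusted p = 0.021) of IId fell. The call of WRKY17 was lost when Col-0 0 h replicate 1 or Col-0 30 h replicate 1 was left out in turn (adjusted p from 0.0936 to 0.0999) and that of WRKY21 when Col-0 0 h replicate 2 or Col-0 30 h replicate 1 was left out in turn (adjusted p from 0.112 to 0.118), and also when scaled to total reads (-0.39, adjusted p = 0.0693). WRKY55 rose to 4.24 and 3.25 FPKM at 30 h in Col-0, against 0.198 and 0.390 at 0 h. Its group means reached 1 FPKM only at 30 h and were 0.147 to 0.963 FPKM at the other times in both genotypes. So its place among the members tested and its rise to 30 h are not independent. For its neighbour on chromosome 2, WRKY54, no change there passed (-0.16 ± 0.12, adjusted p = 0.313). At 30 h in Col-0, 5 of 6 guard cell genes were below 0 h (median -0.95), with sums of 331 to 458 FPKM at 30 h and 594 to 660.1 FPKM at 0 h. Here too TGG1 made up most of each sum. Of the 4 mesophyll genes 3 were lower and 1 higher, with sums of 37493 to 39462 FPKM at 30 h and 52879 to 53664 FPKM at 0 h. Of the 8 senescence genes 3 were higher and 1 lower, with sums of 293 to 344 FPKM at 30 h and 185 to 239 FPKM at 0 h. The part of these genes in the WRKY result was not tested. All 4 changes within a genotype share its 0 h libraries.

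Whether a change differed between the genotypes was tested by the difference of the changes, that in ilp1-1 minus that in Col-0. At 4 h this was positive for 3 members and negative for 0, against 4.22% and 5.12% of all genes (9.34% in all). At an unadjusted p under 0.05 limma had 1 negative member, and limma-voom, with adjustment, 0. At 8 h it was positive for 10 members, against 6.49% of all genes, and negative for 0, against 6.78% (13.3% in all), again with 1 negative member at an unadjusted p under 0.05 and 0 by limma-voom. At 16 h it was positive for 7 and negative for 1, against 4.6% and 9.59% of all genes (14.2% in all), and 9 and 0 when scaled to total reads. At 30 h it was positive for 12 and negative for 1, against 7.65% and 9.19% of all genes (16.8% in all). Over the members the median was 0.28 for 4 h and 0.36 for 8 h, then 0.37 for 16 h and 0.48 for 30 h, against at most 0.03 over all genes. In the same test at 30 h all 4 mesophyll genes were negative (median -1.30) and 2 of 8 senescence genes positive. Mesophyll genes were negative for 3 of 4 at 4 h and at 16 h, and at 8 h 1 was negative and 1 positive. Of the 8 senescence genes 3 were positive at 8 h, and 1 each for 4 h and 16 h. The part of these genes in the WRKY result was not tested.

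At 8 h, WRKY46 had the largest difference of changes (1.80 ± 0.29, adjusted p = 0.000738): it was above 0 h in ilp1-1 (0.57 ± 0.21) and below it in Col-0 (-1.22 ± 0.21). WRKY30 did the same, with 0.65 ± 0.17 in ilp1-1 and -0.93 ± 0.17 in Col-0 and a difference of 1.57 ± 0.24, adjusted p = 0.000448. WRKY33 fell in Col-0 (-1.23 ± 0.17) and had a change that did not pass in ilp1-1 (0.42 ± 0.17, adjusted p = 0.0567), with a difference of 1.65 ± 0.24, adjusted p = 0.000334. WRKY44 had positive differences at all 4 times, starting with 0.87 ± 0.22 (adjusted p = 0.0224) for 4 h. By 8 h it had reached 1.14 ± 0.22, adjusted p = 0.00307. For WRKY44 the later values were 1.37 ± 0.22, adjusted p = 0.000583 at 16 h, then 0.91 ± 0.22 at 30 h (adjusted p = 0.0113). At 30 h, WRKY60 had the largest difference (1.70 ± 0.35, adjusted p = 0.00362), before WRKY30 (1.38 ± 0.24, adjusted p = 0.000976), WRKY63 (1.37 ± 0.38, adjusted p = 0.02) and WRKY53 (1.34 ± 0.30, adjusted p = 0.00583). WRKY70 (1.05 ± 0.23, adjusted p = 0.00582) and WRKY54 (0.77 ± 0.16, adjusted p = 0.0045) were positive as well. WRKY25 was the negative member at 16 h (-0.89 ± 0.25, adjusted p = 0.0256). It was negative also at 30 h (-0.80 ± 0.25, adjusted p = 0.0378), where its level in Col-0 was above 0 h (0.92 ± 0.18) and its change in ilp1-1 did not pass (0.12 ± 0.18). Scaled to total reads both calls of WRKY25 were lost (-0.73, adjusted p = 0.0565, at 16 h and -0.68, adjusted p = 0.0653, at 30 h). With libraries left out, calls of WRKY25 were lost at 16 h when ilp1-1 0 h replicate 1, ilp1-1 0 h replicate 2, ilp1-1 16 h replicate 1, ilp1-1 16 h replicate 2, Col-0 0 h replicate 2 or Col-0 16 h replicate 1 was left out in turn (adjusted p from 0.0533 to 0.105), and at 30 h when ilp1-1 0 h replicate 1, ilp1-1 0 h replicate 2, ilp1-1 30 h replicate 1, ilp1-1 30 h replicate 2, Col-0 0 h replicate 2, Col-0 30 h replicate 1 or Col-0 30 h replicate 2 was left out in turn (adjusted p from 0.063 to 0.139).

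These counts moved with single libraries. At 4 h, where 3 members passed, the count was 1 without ilp1-1 0 h replicate 1, 1 without ilp1-1 4 h replicate 1 and 0 without Col-0 0 h replicate 1. At 8 h, where 10 passed, it was 5 without ilp1-1 0 h replicate 1, ilp1-1 8 h replicate 2, Col-0 0 h replicate 1 or Col-0 8 h replicate 1, and 6 without ilp1-1 8 h replicate 1. At 16 h, where 8 passed, it was 1 without ilp1-1 16 h replicate 2, 2 without ilp1-1 0 h replicate 1 or Col-0 0 h replicate 1, 4 without Col-0 16 h replicate 1 or Col-0 16 h replicate 2, and 5 without Col-0 0 h replicate 2. At 30 h, where 13 passed, it was 6 without ilp1-1 30 h replicate 2 or Col-0 30 h replicate 2, and 7 without ilp1-1 0 h replicate 1. Fits on the libraries of each comparison alone passed 0 members at 4 h, 6 at 8 h and 3 at 16 h, and with no filter on low values 5 passed at 8 h and 5 at 16 h.

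Upstream of the family, 27 genes of pattern recognition receptors, MAP kinase cascades and calcium-dependent kinases were all tested. The list also holds the phosphatases AP2C1, MKP1 and PTP1 and the oxidase RBOHD, so counts over it mix enzymes of different action. In mean, 14 were higher in ilp1-1 and 1 lower, against 29.3% and 27.8% of all genes, with a median difference of 0.15. MEKK1 (0.56 ± 0.06, adjusted p = 5.89e-07), a kinase at the head of a MAP kinase cascade, and BAK1 (0.35 ± 0.05, adjusted p = 2.56e-05), the coreceptor of FLS2, were among those higher. BIK1, a kinase bound to such receptors, was higher as well (0.43 ± 0.08, adjusted p = 0.000215). At 0 h, 1 of the 27 was higher and 4 lower, against 10% and 12.2% of all genes. Lower there were the MAP kinase kinase MKK9 (-0.59 ± 0.13, adjusted p = 0.00394), the calcium-dependent kinase CPK5 (-0.39 ± 0.09, adjusted p = 0.00423) and the MAP kinase MPK3 (-0.38 ± 0.11, adjusted p = 0.0176). At 4 h 5 were higher and 4 lower, against 14.7% and 15.8% of all genes, with MPK3 again lower (-0.39 ± 0.11, adjusted p = 0.0113). MEKK1 had 12.001 and 10.4 FPKM at 0 h, 10.5 and 10.4 at 4 h, 11.5 and 10.8 at 8 h, 10.1 and 11.9 at 16 h and 16.4 and 19.3 at 30 h in ilp1-1. Set against this were 9.15 and 9.45 FPKM at 0 h, 7.92 and 7.61 at 4 h, 6.40 and 6.41 at 8 h, 6.76 and 6.70 at 16 h and 11.1 and 8.09 at 30 h in Col-0. The genotypes did not overlap at any time. At 30 h against 0 h, 20 of the 27 rose and 1 fell in ilp1-1 (27.6% and 24.5% of all genes), and 11 rose and 2 fell in Col-0 (20.8% and 19.7% of all genes). At 4 h, 2 rose and 10 fell in Col-0 (22.6% and 23.5% of all genes), with CPK11, a calcium-dependent kinase, at the smallest p (-2.10 ± 0.15, adjusted p = 2.23e-08). The difference of changes at 30 h was positive for 13 and negative for 0, against 7.65% and 9.19% of all genes (1 negative at an unadjusted p under 0.05 in limma, 0 by limma-voom).

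Among 24 genes known as direct or genetic targets of WRKY factors, 21 were tested. The list mixes genes of different regulation, among them PHO1, which WRKY6 represses, so counts over it cannot be read as WRKY activity. In mean, 14 were higher in ilp1-1 and 0 lower, against 29.3% and 27.8% of all genes, with a median difference of 0.49, and 0 were lower in limma at an unadjusted p under 0.05 or by limma-voom. AOX1A, the alternative oxidase of mitochondria, had 248 and 217 FPKM at 0 h, 105 and 98.5 at 4 h, 81.1 and 84.7 at 8 h, 35.04 and 31.7 at 16 h and 52.4 and 64.1 at 30 h in ilp1-1. Col-0 libraries had 24.6 and 23.9 FPKM at 0 h, 34.5 and 34.7 at 4 h, 18.8 and 18.9 at 8 h, 25.04 and 21.02 at 16 h and 39.6 and 34.3 at 30 h. It was highest in ilp1-1 at 0 h, before high light, where it differed by 3.20 ± 0.11, adjusted p = 1.04e-10, and its change to 30 h differed by -2.56 ± 0.15, adjusted p = 7.45e-08. UPOX, another gene of mitochondrial stress, had a mean difference of 2.22 ± 0.10, adjusted p = 2.77e-11 and a difference of changes at 30 h of -2.63 ± 0.30, adjusted p = 2.22e-05. EDS1, a central regulator of defence with PAD4, had 11.9 and 14.03 FPKM at 0 h, 6.48 and 7.53 at 4 h, 9.90 and 7.90 at 8 h, 23.3 and 28.9 at 16 h and 74.5 and 67.8 at 30 h in ilp1-1. Levels in Col-0 were 17.3 and 13.3 FPKM at 0 h, 5.56 and 5.09 at 4 h, 5.65 and 7.26 at 8 h, 13.7 and 14.5 at 16 h and 31.2 and 34.8 at 30 h. Its difference at 30 h was 1.09 ± 0.15, adjusted p = 4.9e-05. SARD1 (1.09 ± 0.19, adjusted p = 0.000322) and ICS1 (1.12 ± 0.20, adjusted p = 0.000508), which act in salicylic acid synthesis, were higher at 30 h in ilp1-1 too. At 30 h against 0 h, 15 of the 21 rose and 3 fell in ilp1-1 (27.6% and 24.5% of all genes), and 14 rose and 1 fell in Col-0 (20.8% and 19.7% of all genes). At 4 h, 1 rose and 11 fell in Col-0, against 22.6% and 23.5% of all genes. The difference of changes at 30 h was positive for 4 and negative for 2, and did not pass for 15, against 7.65% positive and 9.19% negative among all genes.

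Of 25 VQ genes, whose proteins bind WRKY factors, 12 were tested. In mean, 2 were higher in ilp1-1 and 5 lower, against 29.3% and 27.8% of all genes. VQ4 was lower (-0.31 ± 0.06, adjusted p = 0.000179) and VQ10 higher (0.43 ± 0.09, adjusted p = 0.00117). SIB1, which binds WRKY33, was lower in ilp1-1 at 4 h (-0.72 ± 0.14, adjusted p = 0.000884). At 30 h against 0 h in ilp1-1, 7 rose and 1 fell (27.6% and 24.5% of all genes), VQ10 among those that rose (3.20 ± 0.21, adjusted p = 5.63e-09). The members of all these lists were chosen with earlier results of these data known.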

How the data were processed

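Poly-A RNA of whole leaves was measured in 20 libraries made with a dUTP protocol, per the labels' protocols, 2 for each of 10 combinations of genotype and time. The authors deposited 10 tables of FPKM values for 33104 genes, with gene names and transcription factor families. The submitters' processing notes name TAIR10, featureCounts 1.5.0-p3 and HISAT2 2.0.5, without options. Whether counting used strand is not given in the sources used here, and the notes do not say how FPKM was computed. The FPKM values stepped in whole reads, and the recovered reads gave the depth, 11.4 to 19.0 M per library. Over genes with reads in all libraries, a size factor for each library was taken as its median ratio to the geometric mean. The divisor in the FPKM values was this factor times 13.97 M in all 20 libraries, and so not the total reads.

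The 19311 genes that reached 1 FPKM in 2 or more libraries were tested on the log2(FPKM + 1) scale. A pseudocount of 1 makes the fold change of a gene with few reads look smaller. A linear model with a mean for each of the 10 groups was fitted in limma 3.58.1 (R 4.3.3), with moderated variances that follow a trend in intensity (10 residual degrees of freedom and, as a median, 5.12 prior ones). It gave 18 contrasts: genotype differences in the mean and at 5 times, 4 changes from 0 h per genotype, and 4 differences between those changes. P-values were adjusted by Benjamini and Hochberg over all genes within a contrast, with a threshold of 0.05. On simulated data, for the genotype difference at 4 h, the fit recovered 88% of 2-fold and 56% of 1.5-fold changes. Each of these changes was set in 100 of 19311 genes, while 5900 genes passed at 4 h in the data. The adjustment for many tests thus differed, and the rates need not hold for the members. These changes were set only in genes above a low level, so members that did not pass may still differ.

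Named members were, for the mean difference and the Col-0 change to 4 h, up to 8 highest and 8 lowest of those that passed with at least 1 FPKM in the higher group, and up to 4 each way elsewhere. WRKY18, WRKY40, WRKY60, WRKY33, WRKY25, WRKY26, WRKY53, WRKY46, WRKY70, WRKY54, WRKY6, WRKY75, WRKY22, WRKY29 and WRKY57 were described whatever their result. The rule for partner lists was up to 4 genes of each by smallest adjusted p, but over the several comparisons more were named from the kinase and target lists. The members and lists were chosen with earlier results of these data known. Subgroups follow the common classification of the family. Sequences came from RefSeq's TAIR10.1 genome, in which 99.9% of 32548 genes found by locus tag had the start and end of the files. Alternatives were a pseudocount of 0.1, no filter, scaling to total reads, no trend, the replicate block, own libraries only, limma-voom on recovered reads, and each library left out. Apart from the fit with the replicate block, libraries were not paired by number. Other steps ran in Python 3.11.15 with pandas 2.3.3, matplotlib 3.10.9 and numpy 2.4.6.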

Additional observations from a re-analysis of the deposited data

Results flagged for a closer look

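The difference between the genotypes in their change from 0 h was tested with an interaction term in limma, with adjustment over 19311 genes, and each result here passed that test. At 4 h there were 3 such members, or 6% of those tested, against 9.34% of all genes. WRKY46 (1.26 ± 0.29) lost its call when ilp1-1 0 h replicate 1, ilp1-1 4 h replicate 1, Col-0 0 h replicate 1 or Col-0 4 h replicate 2 was left out in turn (adjusted p from 0.0552 to 0.0638). WRKY30 (0.95 ± 0.24) lost it when ilp1-1 0 h replicate 1, ilp1-1 4 h replicate 2, Col-0 0 h replicate 1 or Col-0 4 h replicate 2 was left out in turn (adjusted p from 0.0715 to 0.097). WRKY44 (0.87 ± 0.22) lost it when ilp1-1 0 h replicate 2, ilp1-1 4 h replicate 1, Col-0 0 h replicate 1, Col-0 0 h replicate 2 or Col-0 4 h replicate 1 was left out in turn (adjusted p from 0.0509 to 0.0951). Fitted on the libraries of the comparison alone, all 3 lost their calls, WRKY46 with an adjusted p = 0.0878, WRKY30 with 0.1002 and WRKY44 with 0.122. In limma-voom on recovered reads WRKY30 (adjusted p = 0.0997) and WRKY44 (adjusted p = 0.0612) did not pass.

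At 8 h there were 10 members, or 20%, against 13.3% of all genes. They were led by WRKY46 (1.80 ± 0.29), WRKY33 (1.65 ± 0.24) and WRKY30 (1.57 ± 0.24), which kept their calls with any single library left out. WRKY51 (1.22 ± 0.37) lost its call when ilp1-1 0 h replicate 1, ilp1-1 8 h replicate 1, ilp1-1 8 h replicate 2, Col-0 0 h replicate 1, Col-0 8 h replicate 1, Col-0 8 h replicate 2, Col-0 30 h replicate 1 or Col-0 30 h replicate 2 was left out in turn (adjusted p from 0.0512 to 0.161). It lost it also with a pseudocount of 0.1, no filter, no intensity trend, the replicate block or its own libraries only (adjusted p from 0.0505 to 0.0774).

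At 16 h there were 8 members, or 16%, close to the 14.2% of all genes. WRKY44 (1.37 ± 0.22) kept its call with any single library left out. WRKY48 (1.20 ± 0.37) lost it when ilp1-1 0 h replicate 2, ilp1-1 4 h replicate 1, ilp1-1 4 h replicate 2, ilp1-1 16 h replicate 1, ilp1-1 16 h replicate 2, Col-0 0 h replicate 1, Col-0 0 h replicate 2 or Col-0 16 h replicate 1 was left out in turn (adjusted p from 0.0514 to 0.17), and also with no filter, the replicate block or its own libraries only (adjusted p from 0.0524 to 0.0595). WRKY46 (0.94 ± 0.29) lost it when ilp1-1 0 h replicate 1, ilp1-1 8 h replicate 1, ilp1-1 8 h replicate 2, ilp1-1 16 h replicate 2, ilp1-1 30 h replicate 1, ilp1-1 30 h replicate 2, Col-0 0 h replicate 1, Col-0 0 h replicate 2, Col-0 16 h replicate 1, Col-0 16 h replicate 2, Col-0 30 h replicate 1 or Col-0 30 h replicate 2 was left out in turn (adjusted p from 0.0538 to 0.187), and also with a pseudocount of 0.1, no filter, no intensity trend, the replicate block or its own libraries only (adjusted p from 0.0551 to 0.0865). WRKY33 (0.88 ± 0.24) lost it when ilp1-1 0 h replicate 1, ilp1-1 16 h replicate 2, Col-0 0 h replicate 1 or Col-0 16 h replicate 2 was left out in turn (adjusted p from 0.0786 to 0.11). WRKY25 differed the other way (-0.89 ± 0.25), with its losses given above.

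At 30 h there were 13 members, or 26%, against 16.8% of all genes. WRKY60 (1.70 ± 0.35), WRKY30 (1.38 ± 0.24) and WRKY53 (1.34 ± 0.30) kept their calls with any single library left out. WRKY63, a regulator of abscisic acid responses, had 5.65 and 6.09 FPKM at 30 h and 0.837 and 1.82 FPKM at 0 h in ilp1-1, and 1.69 and 0.956 FPKM at 30 h and 1.16 and 0.787 FPKM at 0 h in Col-0. Its difference (1.37 ± 0.38) lost the call when ilp1-1 0 h replicate 1, ilp1-1 30 h replicate 2, Col-0 0 h replicate 1 or Col-0 30 h replicate 2 was left out in turn (adjusted p from 0.0627 to 0.0941), and also with a pseudocount of 0.1 (adjusted p = 0.248) and in limma-voom (adjusted p = 0.0812). WRKY25 was negative (-0.80 ± 0.25) and lost its call also with a pseudocount of 0.1, no filter or no intensity trend (adjusted p from 0.0583 to 0.0655). No cause of any of these differences was tested.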

How the results depend on the processing

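Of 111 results on WRKY members named by the rule above, none changed direction in 3008 checks, and 171 of those checks ended a call. Results on genes of the kinase, target and VQ lists were not among the 111. Nor were those on WRKY28 and on other member values given outside the rule. In many of these checks the difference could not move, so its direction was fixed in advance and only the call could change. Such checks were a left-out library from outside the comparison, no filter, no intensity trend, the replicate block and own libraries only. Refitting each contrast on its own libraries alone ended 21 of the 111 calls, scaling to total reads 10 and no filter 8. A pseudocount of 0.1 and limma-voom on recovered reads ended 4 each, and no intensity trend 3. The counts of members that passed were within 1.5 times the reported ones except in the following cases. With own libraries only, the genotype difference passed for 2 members at 0 h and 9 at 4 h, the ilp1-1 change for 9 at 4 h, and the difference of changes for 0 at 4 h, 6 at 8 h and 3 at 16 h. With no filter, the difference of changes passed for 5 members at 8 h and 5 at 16 h. With limma-voom, the genotype difference at 0 h passed for 9 members. Within that limit, 22 members passed in the mean with the 4 h and 8 h libraries of ilp1-1 left out.

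Leaving out each library in turn gave the following lowest and highest counts. For the genotype difference they were 26 and 30 in the mean, 3 and 6 at 0 h, 9 and 15 at 4 h, 10 and 20 at 8 h, 9 and 15 at 16 h, and 14 and 24 at 30 h. For ilp1-1 they were 8 and 15 at 4 h, 12 and 19 at 8 h, 10 and 18 at 16 h, and 22 and 27 at 30 h. For Col-0 they were 21 and 29, 18 and 26, 6 and 12, and 13 and 15 at these times. For the difference of changes they were 0 and 3, 5 and 10, 1 and 9, and 6 and 14. A group left with 1 library was assumed to vary like the others.

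The replicate numbers did not pair libraries: deviations of same-numbered libraries correlated by -0.148 to 0.126 between groups (median 0.010). With the replicate number as a block, 27 members passed in the mean difference, 17 in the genotype difference at 8 h and 8 in the difference of changes at 8 h, and 3 of the 111 named calls ended (WRKY51 at 8 h, and WRKY46 and WRKY48 at 16 h, all in the difference of changes). Having 2 libraries per group limits the precision for members near 1 FPKM, and counting error and the other spread between these libraries were not separated.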

Other observations

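Likeness of members was described by Pearson's r over the 10 group means of log2(FPKM + 1), which share libraries and scaling. Over the 1225 pairs of tested members the median r was 0.326. Within group III it was 0.689 over 45 pairs, within group I 0.164 over 66 pairs, within subgroup IIa 0.758 over 3 pairs, in the 1 pair of IIb 0.797, within IIc 0.543 over 45 pairs, within IId -0.080 over 15 pairs and within IIe -0.137 over 15 pairs. The most alike were WRKY53 and WRKY30 of group III (0.979), WRKY47 of IIb and WRKY50 of IIc (0.978), and WRKY40 of IIa and WRKY30 (0.973). WRKY60 and WRKY70, of subgroup IIa and group III, had 0.970. The pairs with the highest values thus crossed subgroups as well as staying within them.

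WRKY67 (chr1:24828502-24829660), WRKY64 (chr1:24833518-24834801) and WRKY63 (chr1:24848320-24849543) lie close together on the plus strand of chromosome 1 and belong to group III. WRKY63 reached 6.09 FPKM in its highest library, WRKY67 0.540 and WRKY64 0.216, and the last had no read in 16 of 20 libraries. Close relatives such as these can share reads, so their levels are uncertain.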
